A study of Mus musculus with 6 samples.

Results

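U4 and U6 are the small nuclear RNAs that enter the spliceosome base-paired to each other, and their genes were followed here through the peak lists of 6 YTHDC1 LACE-seq libraries. The members were the mm9 GENCODE genes named U4 or U6 with the type snRNA, 43 U4 and 936 U6 copies (979 of 37310 annotated genes). A listed peak was taken when it overlapped such a copy by at least 1 nt and its reads ran on the strand opposite to the gene, which is the orientation of reads from the RNA in these files. This gave 1444 of 178779 listed peaks, summed over the 6 libraries.

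LACE-seq maps the RNA sites of a protein from small numbers of cells: RNA and protein are crosslinked by UV light, the complex is immunoprecipitated, the RNA is trimmed with a nuclease on beads and reverse transcription stops at the crosslink. The protein was YTHDC1, the nuclear reader of N6-methyladenosine (m6A). Of the 6 libraries, 4 came from ASC-48h, satellite cells (the stem cells of skeletal muscle) isolated from mouse hindlimb muscle by fluorescence sorting and cultured for 48 h, as biological replicates B1 and B2 with technical replicates T1 and T2 of each. The other 2 came from C2C12, an established mouse myoblast line, and are called replicates 1 and 2 (biological by their labels, technical by the study's text). All 6 were labelled WT and used the same YTHDC1 antibody, the strain and age of the mice for these libraries are not given in the sources used here, and no library without the antibody was analysed here. The study put far more cells into each C2C12 replicate than it states for ASC-48h, so cell type and cell input cannot be told apart.

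U6 is made by RNA polymerase III, carries a methyl cap on its 5′ phosphate and ends in a run of uridines bound by the LSM2 to LSM8 ring. Its ACAGAGA box pairs with the 5′ splice site of the intron, and an adenosine inside the box is methylated to m6A by METTL16. U4 is made by RNA polymerase II, carries a trimethylguanosine cap and an Sm protein ring near its 3′ end, and holds U6 in an inactive pairing until the helicase SNRNP200 (BRR2) unwinds them. The genome holds very many U6-like copies, many of them diverged.

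Positions given later are counted from 1 at the 5′ end of a reference sequence for each RNA, read from mm9 (NCBIM37) at the GENCODE coordinates. For U6 the reference is the most frequent annotated sequence, 107 nt long and present in 43 identical copies, with the ACAGAGA box at nt 41 to 47.

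The U4 sequences are printed to show the bases that some copies of this RNA share. No U4 sequence was annotated more than once. The copy with the highest summed alignment score to the others served as reference, chr5:115939468-115939608 on the plus strand, 141 nt long. It is followed by its neighbour at chr5:115940263-115940403, also on the plus strand, and capitals mark the bases that differ between them (G88A and C99A, reference base first):
U4 reference: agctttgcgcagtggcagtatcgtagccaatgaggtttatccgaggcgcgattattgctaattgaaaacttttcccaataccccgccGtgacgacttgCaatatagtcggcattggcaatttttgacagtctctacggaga
U4 neighbour: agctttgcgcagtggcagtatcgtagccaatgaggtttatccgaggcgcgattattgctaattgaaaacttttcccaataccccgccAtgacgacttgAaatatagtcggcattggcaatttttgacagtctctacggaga

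The diverged copy at chr5:38937697-38937832, on the plus strand, is shown because it had a peak in every library. Capitals mark its first 40 nt, which match the reference base for base:
U4 diverged copy: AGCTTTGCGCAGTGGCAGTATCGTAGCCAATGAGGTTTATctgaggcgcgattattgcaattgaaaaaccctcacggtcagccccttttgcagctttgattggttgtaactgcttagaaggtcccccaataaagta

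Each listed peak gives reads per 20-nt bin (a mean over bins where a peak is wider), and library totals are unknown. Where 4 values are given for ASC-48h without further words, they stand in the order B1 T1 and T2, then B2 T1 and T2, and 2 values for C2C12 stand in the order of its replicates. The ASC-48h lists held 7925 to 19448 peaks with 57953 to 111729 reads, and the C2C12 lists 60540 and 71992 peaks with 523067 and 607366 reads. The fewest reads per bin that a list held were 5, 5, 5 and 4 in the ASC-48h libraries and 6 in each C2C12 library. The muscle genes looked up were Pax7, Myod1, Myf5, Myog, Des and Cdh15. Of these, 3 (50%) had a peak shared by both C2C12 replicates (Des 10, Cdh15 3, Myf5 2 peaks). Of Ptprc, Pecam1 and Pdgfra, genes of other cell types, 2 (66.7%) did (1 peak each on Pecam1 and Pdgfra). Over all protein-coding genes, 21.9% had such a peak, and 2.47% had one shared by the ASC-48h libraries. In ASC-48h, Pax7 had a peak in 4 libraries, Myod1 and Des in 3, Myf5 in 1, and Myog and Cdh15 in 0. Of the genes of other cell types, Pecam1 had a peak in 4 of these libraries, and Ptprc and Pdgfra in 0. No peak on the 6 muscle genes overlapped across all 4 libraries, and 1 on Pecam1 did (a peak is not an expression level, so the label was not tested).

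U4 and U6 took a larger share of the listed reads in ASC-48h than in C2C12. U6 held 0.98% of the reads in all listed bins in B1 T1 and 1.87% in its T2, 3.52% in B2 T1 and 2.14% in its T2, against 0.88% and 0.676% in C2C12 replicates 1 and 2. U4 held 0.202%, 0.227%, 0.272% and 0.179% in the ASC-48h libraries, and 0.0782% and 0.0678% in C2C12. Each ASC-48h library lay above both C2C12 libraries for either RNA, but for U6 the lowest of them, B1 T1, lay only 0.98% against 0.88%. Among peaks with a p-value of at most 0.00001 this order ended: U4 and U6 together held 1.14%, 2.46%, 6.3% and 4.2% in ASC-48h and 2.79% and 2.11% in C2C12.

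With technical replicates averaged first, the share of U4 and U6 together was 2.35% ± 0.998 in ASC-48h and 0.851% ± 0.152 in C2C12 (SD, n = 2 biological replicates and 2 libraries). The difference was 1.5 percentage points (exact two-sided permutation test, p = 0.33, the smallest value that 2 against 2 can give), so the design cannot take it past a threshold of 0.05. If the C2C12 libraries are technical replicates, their spread leaves out that between cultures. These shares are of reads in listed bins: C2C12 lists were several-fold longer, and the part that list length or cell input has in the shares was not tested.

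**Figure D1:**
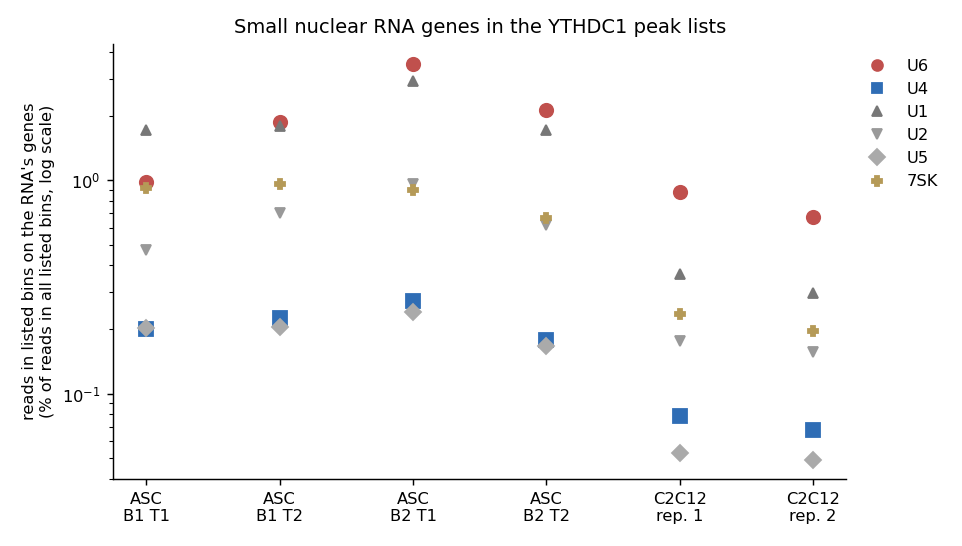
Share of the reads in all listed bins (%, log scale) that lay on the genes of each RNA, 1 point per library; U6 and U4 are the larger coloured symbols. U6 ran from 0.676% to 3.52% and U4 from 0.0678% to 0.272%, and U1, U2, U5 and 7SK were also higher in the ASC-48h libraries.

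The other abundant small nuclear RNAs were higher in ASC-48h too. The ratio of the ASC-48h mean to the C2C12 mean was 2.74 for U6 and 3.01 for U4, beside 6.19 for U1, which recognises the 5′ splice site first, 4.14 for U2 of the branch site, 4.01 for U5 and 3.99 for 7SK, the scaffold of the P-TEFb inhibitor. Among the minor spliceosome's counterparts of U4 and U6, the 1 annotated U4atac gene had a peak in both C2C12 libraries and in B2 T2, and at most 2 of the 28 U6atac genes had one in any library. These are shares per RNA over all of its annotated genes and were not scaled by length or copy number, so they do not rank the RNAs by binding.

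U6 peaks lay on 86, 153, 175 and 202 of the 936 copies in ASC-48h, and on 229 and 233 in C2C12 replicates 1 and 2. U4 peaks lay on 7, 10, 11 and 14 of the 43 copies in the ASC-48h libraries and on 20 in each C2C12 library. The copy number thus followed the library, lowest in B1 T1 and highest in C2C12, for both RNAs. The median reads per U6 bin were 6, 6.5, 9 and 7 in ASC-48h and 11 and 10 in C2C12, beside 6, 6, 6 and 4 and 7 and 7 over all listed peaks.

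A peak in every C2C12 library was found for 222 U6 copies (23.7%, 95% Clopper-Pearson interval 21% to 26.6%) and 18 U4 copies (41.9%, interval 27% to 57.9%). The same held for 21.2% of all annotated genes and for 20.5% of the snRNA genes other than U4 and U6, so the U6 share was near that of other genes and the U4 interval began above both. In every ASC-48h library a peak was found for 71 U6 copies (7.59%, interval 5.97% to 9.47%) and 7 U4 copies (16.3%, interval 6.81% to 30.7%). There the shares were 2.84% of all annotated genes and 14.4% of the other snRNA genes, so U6 copies lay between these shares and U4 copies near the other snRNA genes. This placement of U6 depended on the p-value. Without B1 T1 the shares were 14.4% for U6, 20.9% for U4, 3.77% for all genes and 18% for the other snRNA genes. With a p-value of at most 0.00001 they were 0.321%, 6.98%, 0.681% and 8.11%, so U6 then lay below all annotated genes. Counting copies of the same whole sequence once left 38 U4 and U6 copies together, from 78. The intervals cover counting error only, and copies that share reads are not independent.

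Copies common to all 6 libraries numbered 70 for U6 (7.48%) and 7 for U4 (16.3%), against 2.41% of all annotated genes and 14.4% of the other snRNA genes. Of the 255 U6 copies with a peak in any library, 15 had peaks in ASC-48h alone and 32 in C2C12 alone, while none of the 22 such U4 copies was on an ASC-48h list alone and 7 were in C2C12 alone. For U6 these are 5.88% in ASC-48h alone and 12.5% in C2C12 alone, and for U4 0% and 31.8%. Of the 13447 annotated genes with a peak in any library the shares were 13.6% and 47%, and of the 122 such snRNA genes other than U4 and U6 they were 16.4% and 4.92%. The C2C12 lists are longer, and the part of list length in these shares was not tested.

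The position of the peaks within U6 was read from the 43 identical copies. Bins start at fixed genome coordinates, so each copy is cut at another nucleotide, and the nucleotide that lies in the listed bin of every copy narrows the position below the bin width. Of these copies, 23 lie on the plus and 20 on the minus strand of the genome. A read of this sequence fits all of them equally, and up to 10 placements per read were reported, so reads per copy say nothing of which copy was transcribed.

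On the plus-strand copies of C2C12, listed bins gathered at 2 places. Nucleotide 53 lay in a listed bin at 23 of 23 copies in each replicate, with 8 to 33 reads per bin (median 21) in replicate 1 and 7 to 25 (median 17) in replicate 2. It was the only nucleotide for which this held, and it lies 3′ of the ACAGAGA box. Nucleotide 1, the 5′ end of the RNA, lay in a listed bin at 21 copies in replicate 1 (median 14 reads) and 20 in replicate 2 (median 14.5).

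At the plus-strand copies of ASC-48h, nucleotide 53 was again in listed bins and nucleotide 1 was not. Nucleotide 53 lay in a listed bin at 8, 21, 23 and 21 of the 23 plus-strand copies in ASC-48h. In B2 T1 it was again the only nucleotide shared by all 23 copies, with 8 to 16 reads per bin (median 11). B2 T2 stood apart from the other libraries: its peaks were wider, and nt 36 to 40 lay in listed bins at 22 of its 23 plus-strand copies.

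No ASC-48h library listed a bin over the base aligned to nucleotide 1 of the reference at any U6 copy of either strand. A truncated copy, chr4:136881474-136881529 on the plus strand (ENSMUSG00000089199.1), had a bin over its own first base, which aligns to nucleotide 52, with 11 reads in B2 T1 and 12 in B2 T2. Over all U6 copies, bins on nucleotide 1 held 18% and 18.6% of the U6 reads of C2C12 replicates 1 and 2 and 0% in each of the 4 ASC-48h libraries (exact permutation test over biological replicates, two-sided, p = 0.33, the smallest possible). In C2C12 these were bins of 62 and 61 copies. Nucleotides 1 and 53 were chosen after the values were seen, and a bin that is not listed may still have held reads too few to be listed.

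The same RNA gave other positions at the minus-strand copies. In C2C12 replicate 2, nt 23 to 24 lay in listed bins at 20 of 20 minus-strand copies, and nt 69, 70 and 72 at 19. In replicate 1, nt 19 to 26 did so at 17 copies and nt 71 to 75 at 16. Neither nucleotide 1 nor nucleotide 53 was a centre there: nucleotide 1 was in a listed bin at 0 of 20 copies in each replicate, and nucleotide 53 at 2 and 4.

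The ASC-48h libraries also differed between the strands. At minus-strand copies, nt 76 to 82 lay in listed bins at 20 of 20 copies in B1 T2, nt 76 to 87 at 20 in B2 T1 and nt 78 to 84 at 20 in B2 T2. B1 T1 reached 13 of 20 at best, within nt 76 to 105, and had no listed bin over the middle of the RNA there. In each ASC-48h library the nucleotides listed at most copies thus lay farther 3′ at minus-strand than at plus-strand copies of an identical sequence, and in C2C12 each of the 2 groups of bins did so when set against the group at the same end.

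Other minus-strand bins did not follow this. Nt 19 to 24, which overlap the 5′ group of C2C12, lay in listed bins at 9 of 20 minus-strand copies in B1 T2, 5′ of every plus-strand bin of that library, with 5 or 6 reads each. In B2 T2, nt 28 to 30 did so at 6 copies and nt 51 to 57, which include nucleotide 53, at 19. B1 T1 and B2 T1 had no listed bin in nt 1 to 30 of the identical copies on either strand. Which coordinate of a read the peak caller counted is not given in the sources used here, and its part in this shift was not tested.

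**Figure D2:**
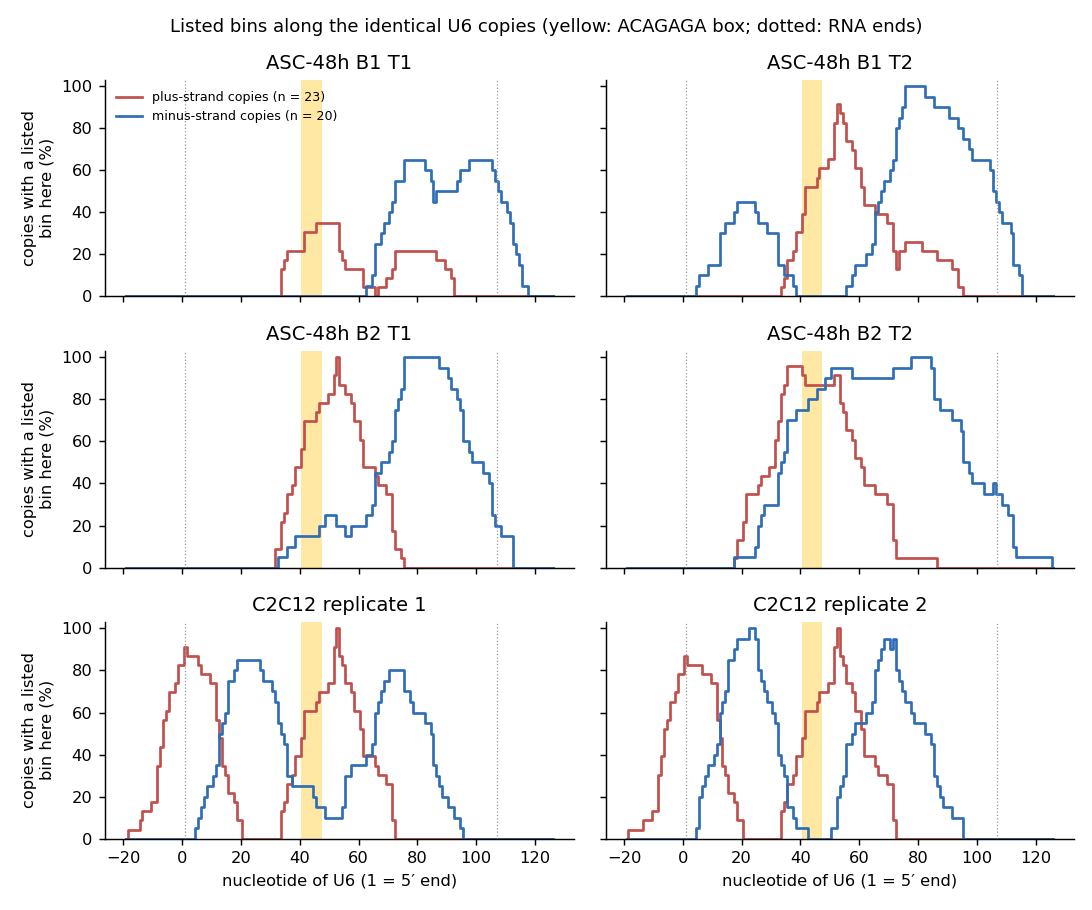
Percent of the identical U6 copies (y axis) with a listed bin over each nucleotide (x axis, 1 = 5′ end), 1 panel per library, for the 23 plus-strand (red) and 20 minus-strand (blue) copies. In C2C12 the red curve peaks at nucleotides 1 and 53 and the blue curve farther 3′, near nt 23 and 72; the red curve is at 0 over nucleotide 1 in the 4 ASC-48h panels, and a lower blue hump over the 5′ part is seen in B1 T2.

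Over all U6 copies, the share of U6 reads in bins that overlap the ACAGAGA box was 13.7%, 20.2%, 28.4% and 39.6% in ASC-48h, and 29.7% and 23.4% in C2C12 replicates 1 and 2. The ASC-48h mean was 25.5% ± 11.2 (SD over 4 libraries) and the C2C12 mean 26.6% ± 4.45 (n = 2), a difference well inside the spread between ASC-48h libraries. This pooled share hid a split by strand. At plus-strand copies it was 51.7%, 60.2%, 68.7% and 66.4% in the ASC-48h libraries and 46% and 37.8% in C2C12.

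At minus-strand copies the box share was 0%, 2.8%, 3.71% and 23.6% in the ASC-48h libraries and 10.3% and 9.52% in C2C12. In every library the minus-strand value lay below the plus-strand value, and the ranges over the 6 libraries did not overlap. At plus-strand copies, bins that also hold nucleotide 53, beyond the 3′ edge of the box, made up 100%, 100%, 95.4% and 60.9% of the box reads in ASC-48h and 100% in each C2C12 library.

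**Figure D3:**
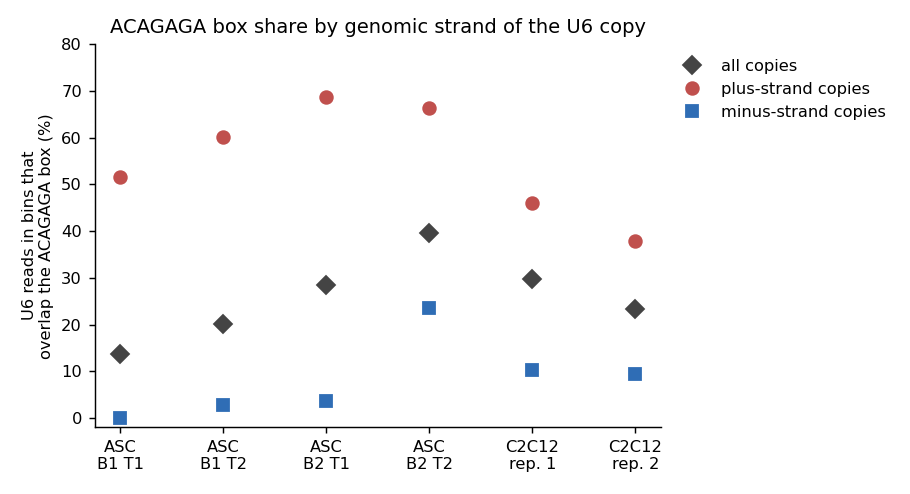
Percent of U6 reads in bins that overlap the ACAGAGA box (y axis) in each library (x axis), for all copies (black), plus-strand copies (red) and minus-strand copies (blue). Plus-strand values sit between 37.8% and 68.7% and minus-strand values between 0% and 23.6%.

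U4 was concentrated at its 5′ end, and there it held some of the highest bins of the whole lists. The highest U4 bin had 33, 32, 25 and 19 reads in ASC-48h and 62 and 61 reads in C2C12. No peak of C2C12 replicate 1 was higher than its U4 bin, out of 60540, and 3 of 71992 were higher in replicate 2. In ASC-48h the number of peaks above the highest U4 bin was 6 of 8115 in B1 T1, 18 of 10759 in its T2, 33 of 7925 in B2 T1 and 71 of 19448 in its T2. The highest U6 bin was lower in each library, at 8.5 to 17 reads in ASC-48h and 36 and 27 in C2C12.

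The reference copy and its neighbour carried these bins. At chr5:115939468-115939608 (ENSMUSG00000075998.1) the highest bin covered positions -6 to 13, with position 0 the base before the RNA, and held 12, 26, 14.5 and 19 reads in ASC-48h and 62 and 61 in C2C12. At chr5:115940263-115940403 (ENSMUSG00000075779.1) the bin covered positions -1 to 18 and held 33, 32, 25 and 19 reads in ASC-48h and 60 and 61 in C2C12. The diverged copy at chr5:38937697-38937832 (ENSMUSG00000064419.1), with a bin at positions -15 to 4, held 8, 22, 21 and 19 reads in ASC-48h and 10.5 and 17.5 in C2C12.

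The other 4 U4 copies with a peak in all 6 libraries had 4.5 to 17 reads in their highest bin in ASC-48h and 12 to 16 in C2C12. They lay at chr8:126881138-126881223 on the plus strand and, on the minus strand, at chr9:88421517-88421632, chr16:35234882-35235009 (antisense to Adcy5) and chr17:37404021-37404183. At the last of these, C2C12 held 16 reads in each replicate and ASC-48h 8, 13, 6 and 7.

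All bins named at the reference copy, its neighbour and the diverged copy contain nucleotide 1. C2C12 lay above every ASC-48h library at the reference copy and its neighbour, but within the ASC-48h range at the diverged copy, whose first 40 nt are the same as theirs. Reads from those 40 nt fit all of these copies, and the values from 8 to 17.5 here are means over 2 bins.

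Nucleotide 1 lay in a listed bin at 9 of the 11 plus-strand U4 copies with a peak in each C2C12 library, and at 3 of 4, 3 of 5, 3 of 5 and 8 of 9 in ASC-48h. At minus-strand U4 copies it was in no listed bin: 0 of 9 copies in each C2C12 library and 0 of 3, 5, 6 and 5 in ASC-48h, where bins started at nt 4 or later. The copies compared here are not identical, and the median first position of their bins was not farther 3′ at minus-strand copies in every library: in B1 T2 it was nt 29 on the plus and nt 15 on the minus strand, and in B2 T1 21.5 and 15.

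Over all U4 copies, bins on nucleotide 1 held 45.3%, 43.7%, 37.8% and 39.8% of the U4 reads in the ASC-48h libraries and 44.9% and 46.7% in C2C12. Nucleotide 1 of U4 was thus on the lists of both cell types. Farther along the reference copy, lower bins were listed: the bin at nt 74 to 93 was listed in all 6 libraries, with 8, 9, 8.5 and 10.5 reads in ASC-48h and 14 and 7 in C2C12. Over all copies, bins that overlap the core of the Sm site at nt 119 to 125 (searched as ATTTTTG, in the orientation of the RNA) held 0%, 0%, 3.12% and 4.5% of U4 reads in ASC-48h and 0% in both C2C12 libraries.

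**Figure D4:**
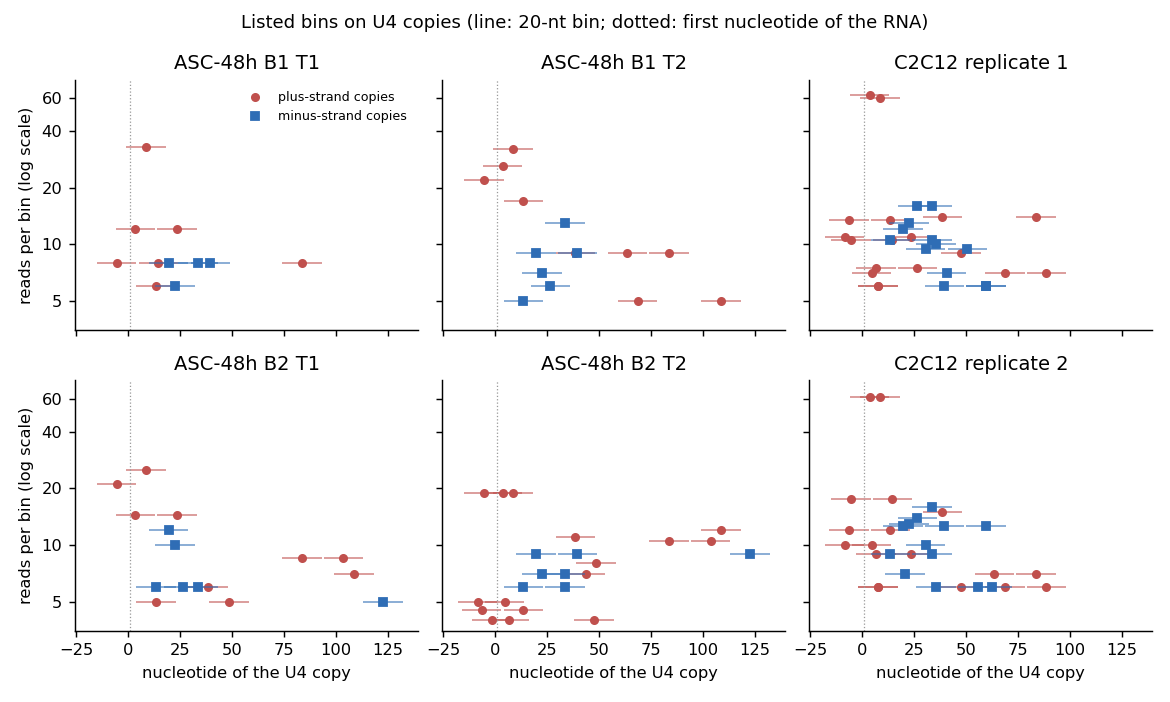
Reads per bin (y axis, log scale) against the position of each listed bin in its U4 copy (x axis, horizontal lines span the 20 nt of the bin), 1 panel per library, plus-strand copies in red and minus-strand copies in blue. The highest points, at 62 and 61 reads in C2C12 and 19 to 33 in ASC-48h, are plus-strand bins over nucleotide 1.

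In 4 of the 5 overlaps that follow, U6 peaks recurred more often than listed peaks in general by more than their interval. Of the U6 peaks of C2C12 replicate 1, 311 of 342 overlapped a peak of replicate 2 on the same strand (90.9%, 95% interval 87.4% to 93.8%), and 22 of 24 U4 peaks did (91.7%, interval 73% to 99%), against 48% of all 60540 peaks. Recurrence went with height: of all peaks with 10 to 20 reads, 81.9% recurred. Within that range of reads, 176 of 185 U6 peaks (95.1%) and all 12 U4 peaks recurred. Below 10 reads, 93 of 113 U6 peaks (82.3%) and 8 of 10 U4 peaks did, against 40.7% of all peaks. From 20 reads up, U6 did not exceed all peaks: 42 of 44 U6 peaks (95.5%) recurred, against 97.8% of all peaks.

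In ASC-48h, 70 of 86 U6 peaks of B1 T1 recurred in T2 (81.4%, interval 71.6% to 89%, which holds the 72.5% of all peaks) and all 8 U4 peaks did. Of the B2 T1 peaks, 154 of 178 for U6 (86.5%, interval 80.6% to 91.2%) and 13 of 14 for U4 recurred in T2, against 64.4%. Of those shared within B1, 55 of 70 for U6 (78.6%, interval 67.1% to 87.5%) and 8 of 8 for U4 were also shared within B2, against 41.5%. The resulting 63 peaks were 2.58% of the 2443 peaks shared by the ASC-48h libraries, and the 333 of C2C12 were 1.14% of 29087. Without B1 T1 the ASC-48h count was 140 of 2966, or 4.72%, and without any one of the other libraries the share was 2.13% to 2.67%. Among peaks with a p-value of at most 0.00001 the order of the cell types turned, with 6 of 647 shared peaks (0.927%) in ASC-48h and 163 of 4420 (3.69%) in C2C12.

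Of the peaks shared by the ASC-48h libraries, 43 of 55 for U6 (78.2%, interval 65% to 88.2%) and 8 of 8 for U4 overlapped a peak shared by the C2C12 libraries, against 61.4% of all. The U6 interval lies above the value for all peaks, and copies that share reads recur together, so these peaks are not independent.

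Among U6 copies, a peak went with likeness to the most frequent sequence. Copies that matched all 107 nt had a peak in 34 of 46 cases in B1 T1 and in 46 of 46 in each of the other libraries. With 3 to 5 unmatched nt the share was 16.4%, 41.1%, 49.3% and 60.3% in ASC-48h and 76.7% and 79.5% in C2C12. With over 20, it was 0.219% to 1.75% of 456 copies in ASC-48h and 1.32% and 1.75% in C2C12. The fall was seen in every library, and B1 T1 was lowest at each step.

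**Figure D5:**
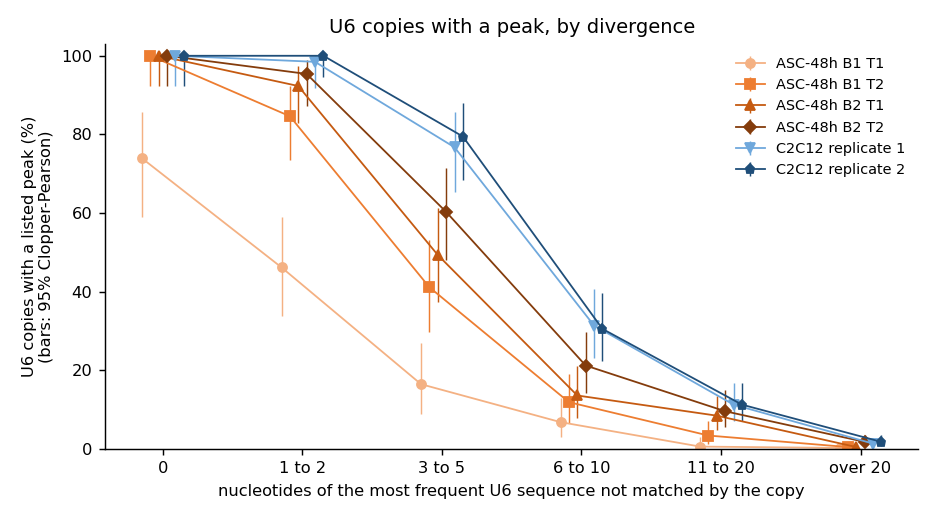
Percent of annotated U6 copies with a listed peak (y axis) by the number of nucleotides of the most frequent sequence that the copy does not match (x axis), 1 line per library, with 95% Clopper-Pearson bars. All lines fall, from 73.9% to 100% at 0 unmatched nt to below 2% at over 20.

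The ACAGAGA box was whole in 485 of the 936 U6 copies. Of these, 226 (46.6%) had a peak in some library, against 29 of the 451 others (6.43%), and 69 of the 70 copies with a peak in all 6 libraries had it. Copies with and without the whole box were not compared at equal likeness in the rest of the sequence, so the part of the box itself was not tested. The exception, at chr1:34038255-34038347, held 5, 9, 8 and 9 reads in ASC-48h and 9 and 10 in C2C12.

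The 7 U4 copies with a peak in all 6 libraries matched 38 to 40 of the first 40 nt (median 40), and from 31 to all 101 of the remaining 101 (median 60). The 21 U4 copies with no peak matched 22 to 38 of the first 40 (median 35), and 27 to 82 of the rest (median 51). At least 38 of the first 40 were matched by 7 of 7 copies in all 6 libraries, 9 of 15 in 1 to 5 libraries and 1 of 21 in none.

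The 5 leading U6 copies of each cell type, ranked by the mean of their highest bins over its libraries, were within 2 nt of the most frequent sequence. In single libraries, copies with 3 to 5 unmatched nt reached 17 reads in B2 T2, the highest U6 value there, and 32 in C2C12 replicate 1, where the highest was 36. In C2C12 the leading copy was chr12:4765353 on the plus strand (ENSMUSG00000075833.1), with 34 and 27 reads in its highest bin and 5, 9, 16 and 8 in ASC-48h. In ASC-48h it was chr12:96858028 on the plus strand (ENSMUSG00000064412.1), an identical copy, with 7, 8, 13 and 15 reads and 33 and 24 in C2C12. C2C12 lay above every ASC-48h library at both. All 5 leading C2C12 copies were on the plus strand, as were 4 of the 5 in ASC-48h, and the fifth, chr2:125935644 (ENSMUSG00000065084.1), held 5.5, 11, 14 and 8.67 reads in ASC-48h and 9 and 10 in C2C12.

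Most U6 bins could not be placed by their own letters. Bins whose 20 nt occur over 50 times in mm9, on either strand, made up 67.4%, 74.5%, 72.6% and 79.5% of U6 bins in ASC-48h and 62.9% and 62.7% in C2C12. Bins that occur once were 15, 21, 22 and 29 in ASC-48h and 74 and 72 in C2C12. Many of these reach past an end of the copy. Bases outside the RNA can then make the bin single, which does not place a read of the RNA. An example is the bin at positions -6 to 13 of the identical copy at chr12:96858028, listed in both C2C12 replicates. For U4 no bin occurred over 50 times, and 4 of 11, 7 of 15, 8 of 16 and 13 of 23 in ASC-48h and 19 of 31 and 16 of 31 in C2C12 occurred once. These include the bins at positions -6 to 13 of the U4 reference copy and -15 to 4 of the diverged copy, which take in bases before the RNA. The 20 nt from nucleotide 1 of U4 occur 11 times, so such bins do not place a read of the RNA either.

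Peaks on the gene's own strand were nearly absent. Over the 6 libraries there were 2, with 11 and 6 reads, both in C2C12 replicate 1 and both on the U6 copy at chr10:66698609-66698709, where the RNA of Jmjd1c, a relative of the histone demethylases, runs on the strand of those reads' RNA. Of the 255 U6 copies with a peak, 45 lay inside a protein-coding gene on the same strand, as did 155 of all 936 copies, and there U6 and the intron around it cannot be told apart.

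Of the genes for proteins of the U4/U6 and U4/U6.U5 particles, 8 of 24 had a peak shared by the C2C12 libraries and 0 of 24 one shared by the ASC-48h libraries. Prpf8, the core protein next to the catalytic centre, had 9 such peaks (highest 13 reads), and Txnl4a, a U5 protein, had 4 (highest 11 reads). Of 7 genes for U6 maturation and modification, 2 did: Mepce, the capping enzyme of 7SK and U6, with 3 peaks, and Papd5, a poly(A) polymerase, with 2. Of 7 Sm protein genes, 2 did, Snrpb having 2 peaks.

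Mettl16, which methylates U6, had no shared peak in either cell type, though 2 ASC-48h libraries listed a peak on it. Beside these, 21.9% of all 22380 protein-coding genes had a peak shared by the C2C12 libraries and 2.47% one shared by the ASC-48h libraries. Counts of 8, 2 and 2 genes are too few to set these lists apart from protein-coding genes in general.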

How the data were processed

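Peak lists of 6 YTHDC1 LACE-seq libraries were used as deposited. Per the submitters' processing notes and the study's methods, the authors trimmed reads (Cutadapt 1.15), removed reads of pre-rRNA, aligned what was left to mm9 by Bowtie 1.2.3 (at most 2 mismatches, up to 10 positions per read) and called peaks per library with Piranha in 20-nt bins at p of at most 0.001. The deposited signal is reads per bin, not normalized, a mean where a peak spans several bins. The p-value deposited by the authors is unadjusted and was used only as a filter. Removal of duplicate reads is not given in the sources used here. The U6 reference sequence is not reported here. Library depth is unknown, so intervals cover counting error only.

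Peaks were joined to GENCODE vM1 genes of type snRNA in Python 3.11.15 (pandas 2.3.3, pysam 0.24.0). Copies were aligned to the reference sequence of their RNA (Biopython 1.88), and unmatched nt were counted along it. Reads of a peak were reads per bin times bins. Peaks were shared when they had the strand and 1 nt or more in common: C2C12 replicate 1 with 2, and in ASC-48h T1 with T2 within each biological replicate, then B1 with B2. Shares were compared by an exact permutation test over biological replicates (scipy 1.17.1). Scripts were tested on simulated data (11 of 11 known answers recovered). Copies were ranked per cell type and RNA by the mean of their highest bin, among those with a peak in every library of that cell type. Copies named were taken from the leading 5 and from those with a peak in all 6 libraries. The others named are described where they appear. Protein genes named for their shared peaks were those with most of them, at most 5. Mettl16 was named as the enzyme that methylates U6. Members, lists and rules were chosen with earlier results of these data known. Alternatives varied strand, overlap, p-value, reads, copies, bin sequence, chromosomes and libraries.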

Additional observations from a re-analysis of the deposited data

Results flagged for a closer look

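Among 32 values compared over the 4 ASC-48h libraries, 1 had a library far from the rest by Dixon's ratio (0.843); chance alone gives about 1 in 20. The share of U6 reads in bins over the ACAGAGA box at minus-strand copies was 23.6% in B2 T2, while the other libraries lay between 0% and 3.71%. Its wider peaks move with this value, and their part in it was not tested.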

How the results depend on the processing

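Of 90 alternatives over 7 results, 75 kept the direction or stayed near the value and 15 moved it. A p-value of at most 0.00001 left 163 shared C2C12 peaks (from 333; 3.69% of all shared), 6 shared ASC-48h peaks (from 63; 0.927%), 140 copies in every C2C12 library (from 240) and 6 in every ASC-48h library (from 78). At least 6 reads per bin left 37 shared ASC-48h peaks and 42 copies in every ASC-48h library. Counting each peak sequence once left 221 shared C2C12 peaks, and counting each whole copy sequence once left 38 copies in every ASC-48h library. With peaks wholly inside the gene, the box share in C2C12 was 33.6%. Restricted, after seeing the data, to plus-strand copies the box share was 41.9% in C2C12 and 61.7% in ASC-48h, and restricted to minus-strand copies 9.92% and 7.52%. The cause of these moves was not tested, except that stricter filters leave fewer peaks.

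Leaving out libraries gave 65 to 140 shared ASC-48h peaks and 80 to 144 copies in every ASC-48h library, the high values without B1 T1, the library with the fewest U6 peaks. In C2C12, leaving out 1 library leaves 1 list, so the 366 to 369 peaks and 249 to 253 copies are counts of single libraries. They were counted as near the main value but test no sharing. Leaving out libraries gave box shares of 22.7% to 28.3% in ASC-48h and 23.4% to 29.7% in C2C12. The differences in share were 1.13 to 1.87 percentage points. The difference in share was 0.893 with each bin sequence counted once, 2.48 with at least 6 reads per bin and 1.07 with a p-value of at most 0.00001 (exact permutation p = 1), where the replicates of the cell types overlapped. With the biological number as a replicate block it was 1.5 (exact sign-flip p = 0.5, the smallest possible). The numbers do not pair ASC-48h with C2C12 by origin; deviations of equal numbers correlated at -0.15 over 77 copies, and the crossed pairing, added after seeing the data, gave the same 1.5. No other result was run with a block.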
